A study of Mus musculus with 6 samples.

Results

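The genes of the HOX clusters in B16 mouse melanoma cells were examined, in cells that lack the interferon-γ receptor subunit IFNγR1 (IFNγR1KO) and in scrambled control cells. Members were chosen by symbol, as every gene of the count tables whose symbol in the GENCODE M21 annotation begins with Hoxa, Hoxb, Hoxc or Hoxd and a digit. This gave 43 of 55335 genes, of which 42 are reported, 38 of them protein-coding and 4 antisense (Hoxa11os, Hoxb3os, Hoxb5os and Hoxd3os1). The family was selected on an earlier look at the same libraries, in which Hoxa11 stood among the genes that fell most in IFNγR1KO cells. The levels of Hoxa11 and of its antisense partner Hoxa11os are therefore given as a description without a test, and the calls on the other members come from the contrast that drew attention to the family and are no independent evidence.

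HOX genes encode homeodomain transcription factors that give cells their position along the body axis and the limb. In mammals they lie in 4 clusters, HoxA to HoxD, in which genes are numbered by paralog group from 1 (anterior, switched on early) to 13 (posterior, switched on late), and a cell usually keeps the combination it took on in the embryo as a HOX code. Polycomb complexes keep silent HOX genes closed, MLL and UTX complexes keep active ones open, and HOX proteins bind DNA together with cofactors of the PBX, MEIS and PKNOX families. B16 cells come from the melanocyte lineage, which arises from the neural crest.

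The cells were B16-BL6, a subline of the B16 melanoma line. Both groups had been transduced with a lentivirus carrying Cas9, a guide RNA and puromycin resistance, the scrambled control with a guide against GFP and IFNγR1KO cells with guides against the first exon of Ifngr1, and were then seeded as single cells. IFNγR1KO clones were screened by their PD-L1 response to interferon-γ, and the labels call the control genotype WT. Each group held 3 cultures that were seeded together and received no treatment, labelled control 1, 2 and 3 and IFNγR1KO 10, 11 and 12. The sources used here do not say which guide or which clone each culture carried, so that the p-values below cover the spread between cultures, and a difference between clones cannot be told apart from a difference between genotypes. In bulk RNA, fewer cells that express a gene and less RNA per cell cannot be told apart either.

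Counts on genes numbered 9402640 to 10579788 in the control libraries and 6698956 to 7409479 in the IFNγR1KO libraries. Levels are given as CPM, that is, counts scaled to a common library size with edgeR's TMM factors, in which 1 count was worth 0.0966 to 0.109 CPM in controls and 0.135 to 0.142 CPM in IFNγR1KO. Ifngr1, the targeted gene, had 154, 144 and 172 counts in controls and 80, 85 and 82 in IFNγR1KO (log2 fold change -0.47, SE 0.16, edgeR adjusted p = 0.0729). A small deletion or insertion in an exon need not change its mRNA, so that this level does not check the labels. Control 3 and IFNγR1KO 12 stood apart from the other libraries of their groups in the same direction (correlation of their deviations from the group means 0.67, against -0.54 to 0.44 for the other pairs across groups), and results that depend on them are given with and without them. The melanocyte markers Mitf, Sox10, Tyr, Tyrp1, Dct, Pmel, Mlana, Slc45a2, Oca2 and Trpm1 were all expressed, with sums of 33643 to 36617 CPM in controls and 29527 to 34558 CPM in IFNγR1KO, and 1 of the 10, Oca2, was called lower (-0.47, SE 0.14, edgeR adjusted p = 0.0432). That call was lost without any 1 library other than IFNγR1KO 12 (edgeR adjusted p up to 0.240).

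The melanoma cells had a HOX code that was centred on HoxA. In control cells 13 of the 42 members reached a mean of 1 CPM, namely Hoxa3, Hoxa5, Hoxa6, Hoxa7, Hoxa9, Hoxa10, Hoxa11 and Hoxa11os of HoxA, Hoxb8 and Hoxb9 of HoxB, and Hoxd3os1, Hoxd4 and Hoxd13 of HoxD. IFNγR1KO cells also expressed 13 members by this measure, 11 of them the same: Hoxa11 and Hoxa11os were absent from the code and Hoxb3 and Hoxb3os were in it. Hoxb3 had only 3 to 6 counts per control library and 10 to 15 in IFNγR1KO. Hoxb3os was not tested and overlapped between groups, with 0.651, 1.09 and 0.387 CPM in controls and 1.42, 0.948 and 1.41 CPM in IFNγR1KO. Of its exonic bases 76.2% lie under genes on the other strand. A threshold of 0.5 CPM gave 15 and 16 members and one of 2 CPM gave 9 in each group. Of the 42 members, 13 had no count in any library and 19 had at most 3 counts in every library.

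**Figure D1:**
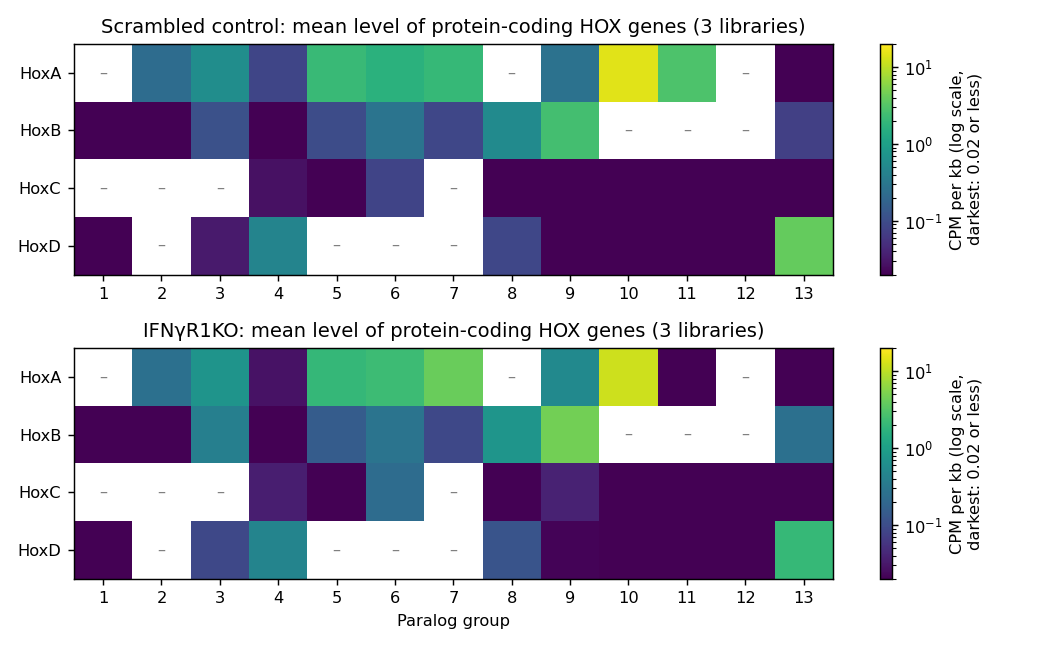
Mean level of protein-coding HOX genes in scrambled control (top) and IFNγR1KO cells (bottom), 3 libraries each, in CPM per kilobase of exon on a log colour scale, with clusters in rows and paralog groups in columns. A dash marks a field for which no gene is shown and the darkest colour stands for 0.02 or less. HoxA was expressed over most of its length, with its highest level at Hoxa10 (14.7 and 11.9 CPM per kilobase). HoxC was dark or nearly so apart from a low level at Hoxc6 (0.0814 and 0.232 CPM per kilobase). HoxD had a gap between group 8 and Hoxd13, and the Hoxa11 field was filled in controls and dark in IFNγR1KO.

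Hoxa10 dominated the code. This posterior gene, known for its part in uterine and limb patterning and in blood cells, had 55.3, 44.97 and 43.6 CPM in the 3 control libraries and made up 43.8 to 47.9% of the summed CPM of all 42 members. Per kilobase of exon its level was 14.7 ± 1.95 CPM (SD, n = 3), and every control library lay above Hoxd13, the next member, at 3.87 ± 0.294. Hoxd13, a regulator of digit formation at the far posterior end of HoxD, lay in turn above Hoxa11, a gene of the forearm and the urogenital tract, at 2.94 ± 0.341 CPM per kilobase.

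Hoxa11 overlapped in its control libraries with Hoxb9 (2.53 ± 0.626 CPM per kilobase), and Hoxb9 with Hoxd3os1 (2.42 ± 0.138), which lay above Hoxa5 in every control library. Hoxa5 (2.17 ± 0.0916), Hoxa7 (2.05 ± 0.728), Hoxa6 (1.66 ± 0.146) and Hoxa11os (1.27 ± 0.309) again overlapped each with the next. Hoxa3, Hoxb8 and Hoxd4 followed at 0.596 ± 0.155, 0.539 ± 0.101 and 0.448 ± 0.0476 CPM per kilobase, then Hoxa9 at 0.273 ± 0.0399 and Hoxb3 at 0.1102 ± 0.0320. The same CPM values, with any reads on shared bases left in, were also divided by only the exonic bases that no other gene covers. By that measure 3 of the 14 tested members kept their rank, Hoxa10 first among them, and Hoxa11 and Hoxd13 changed places.

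The expressed members did not form an unbroken run. In HoxA (chromosome 6, 52162417 to 52260880 for the genes reported, build GRCm38, 98.5 kb) Hoxa2 had 1 to 6 counts per library, Hoxa4 had at most 2 between expressed neighbours, and Hoxa13, the gene of the distal limb at the posterior end, had none. In HoxB (chromosome 11, 96194316 to 96368256, 174 kb) the anterior genes Hoxb1, Hoxb2 and Hoxb4 had no count, Hoxb5, Hoxb6 and Hoxb7 had 0 to 9 and Hoxb13 0 to 5, and control cells expressed Hoxb8 and Hoxb9 alone. In HoxD (chromosome 2, 74668310 to 74765142, 96.8 kb) Hoxd1, Hoxd10, Hoxd11 and Hoxd12 had no count, Hoxd9 had a single one and Hoxd8 had 0 to 6, so that the protein-coding genes between Hoxd13 and Hoxd4 had at most 6 counts, while the antisense gene Hoxd3os1, which runs across Hoxd8, was expressed. HoxC (chromosome 15, 102921103 to 103036852, 116 kb) was the silent cluster: 5 of its 9 genes, Hoxc8 and Hoxc10 to Hoxc13, had no count, Hoxc4, Hoxc5 and Hoxc9 had at most 2, and Hoxc6 had 0, 3 and 3 counts in controls and 5, 4 and 3 in IFNγR1KO. A count of 0 allows up to 3 counts, or 0.290 to 0.326 CPM in a control library and 0.406 to 0.426 CPM in an IFNγR1KO library, with counting error alone considered.

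The promoters of Hoxa11, Hoxa10 and Hoxd13 are shown because these are the highest posterior genes and behaved differently in IFNγR1KO. Each line holds the 250 bases before a RefSeq transcript start (GRCm38.p6), 5′ to 3′ on the strand of the gene, with Hoxa10 represented by both of its starts. Capitals mark the letters TATAAA on either strand, the only motif of those searched that these stretches held.
Hoxa11, chr6:52245811-52246060, minus strand: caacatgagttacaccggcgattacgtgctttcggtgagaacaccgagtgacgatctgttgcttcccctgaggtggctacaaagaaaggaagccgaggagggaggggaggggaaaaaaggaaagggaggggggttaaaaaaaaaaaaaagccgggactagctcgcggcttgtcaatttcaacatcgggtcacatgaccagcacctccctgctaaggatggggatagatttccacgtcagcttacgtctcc
Hoxa10, upstream start, chr6:52240855-52241104, minus strand: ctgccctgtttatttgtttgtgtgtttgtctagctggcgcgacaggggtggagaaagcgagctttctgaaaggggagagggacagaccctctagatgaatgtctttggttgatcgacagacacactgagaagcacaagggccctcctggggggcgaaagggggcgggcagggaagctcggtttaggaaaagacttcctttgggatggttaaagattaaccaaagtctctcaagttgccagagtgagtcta
Hoxa10, downstream start, chr6:52234940-52235189, minus strand: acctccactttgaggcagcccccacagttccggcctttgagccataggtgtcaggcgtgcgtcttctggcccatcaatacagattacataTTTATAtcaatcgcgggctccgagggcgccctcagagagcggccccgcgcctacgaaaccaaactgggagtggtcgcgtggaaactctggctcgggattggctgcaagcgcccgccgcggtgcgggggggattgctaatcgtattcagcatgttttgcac
Hoxd13, chr2:74667975-74668224, plus strand: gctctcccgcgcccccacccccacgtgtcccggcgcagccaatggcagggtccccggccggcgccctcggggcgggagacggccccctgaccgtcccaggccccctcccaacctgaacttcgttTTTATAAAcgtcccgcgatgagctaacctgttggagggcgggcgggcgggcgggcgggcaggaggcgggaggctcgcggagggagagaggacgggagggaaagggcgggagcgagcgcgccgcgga
The search covered TATAAA, the interferon-γ activated site TTCNNNGAA, the interferon-stimulated element (GAAA, 2 bases of any kind, GAAA) and the PBX-HOX site TGATTNAT, on both strands, which occur in 12.4%, 7.02%, 2.98% and 2.82% of 32851 RefSeq promoters of this length. Among 27 promoters of 25 HOX members they were found in 5, 1, 0 and 2, the site TTCNNNGAA in that of Hoxd4 and the PBX-HOX site in those of Hoxa2 and Hoxd11. The downstream Hoxa10 promoter held 1 TATAAA match, read on the opposite strand, at position -160 from the start, and that of Hoxd13 held 2 matches that overlap on opposite strands, at -126 and -124. CG dinucleotides numbered 13 for Hoxa11, 7 and 20 for the upstream and downstream starts of Hoxa10 and 31 for Hoxd13, against a median of 6 over all promoters. Of the Hoxa11 stretch, 98 bases lie under annotated exons.

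The change in IFNγR1KO against control was then followed along each cluster. The filter on low counts, which asks for at least 1.19 CPM in 3 libraries, kept 14 members (8 of HoxA, 3 of HoxB, none of HoxC, 3 of HoxD) among 13642 genes. Apart from Hoxa11 and Hoxa11os, whose levels are described without a test, 12 members remained. In edgeR's quasi-likelihood test, with p adjusted across all genes tested and a threshold of 0.05, 1 of the 12 was lower in IFNγR1KO (Hoxd13), against 7.62% of all genes tested, and 3 were higher (Hoxa7, Hoxb3 and Hoxb9), against 7.73%. The other 8 did not pass. Hoxa11 and Hoxa11os passed the filter through the control group alone and Hoxb3 through IFNγR1KO alone. Hoxb8 and Hoxd4 reached its cutoff in every library but control 3. Nothing is therefore read from these counts.

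**Figure D2:**
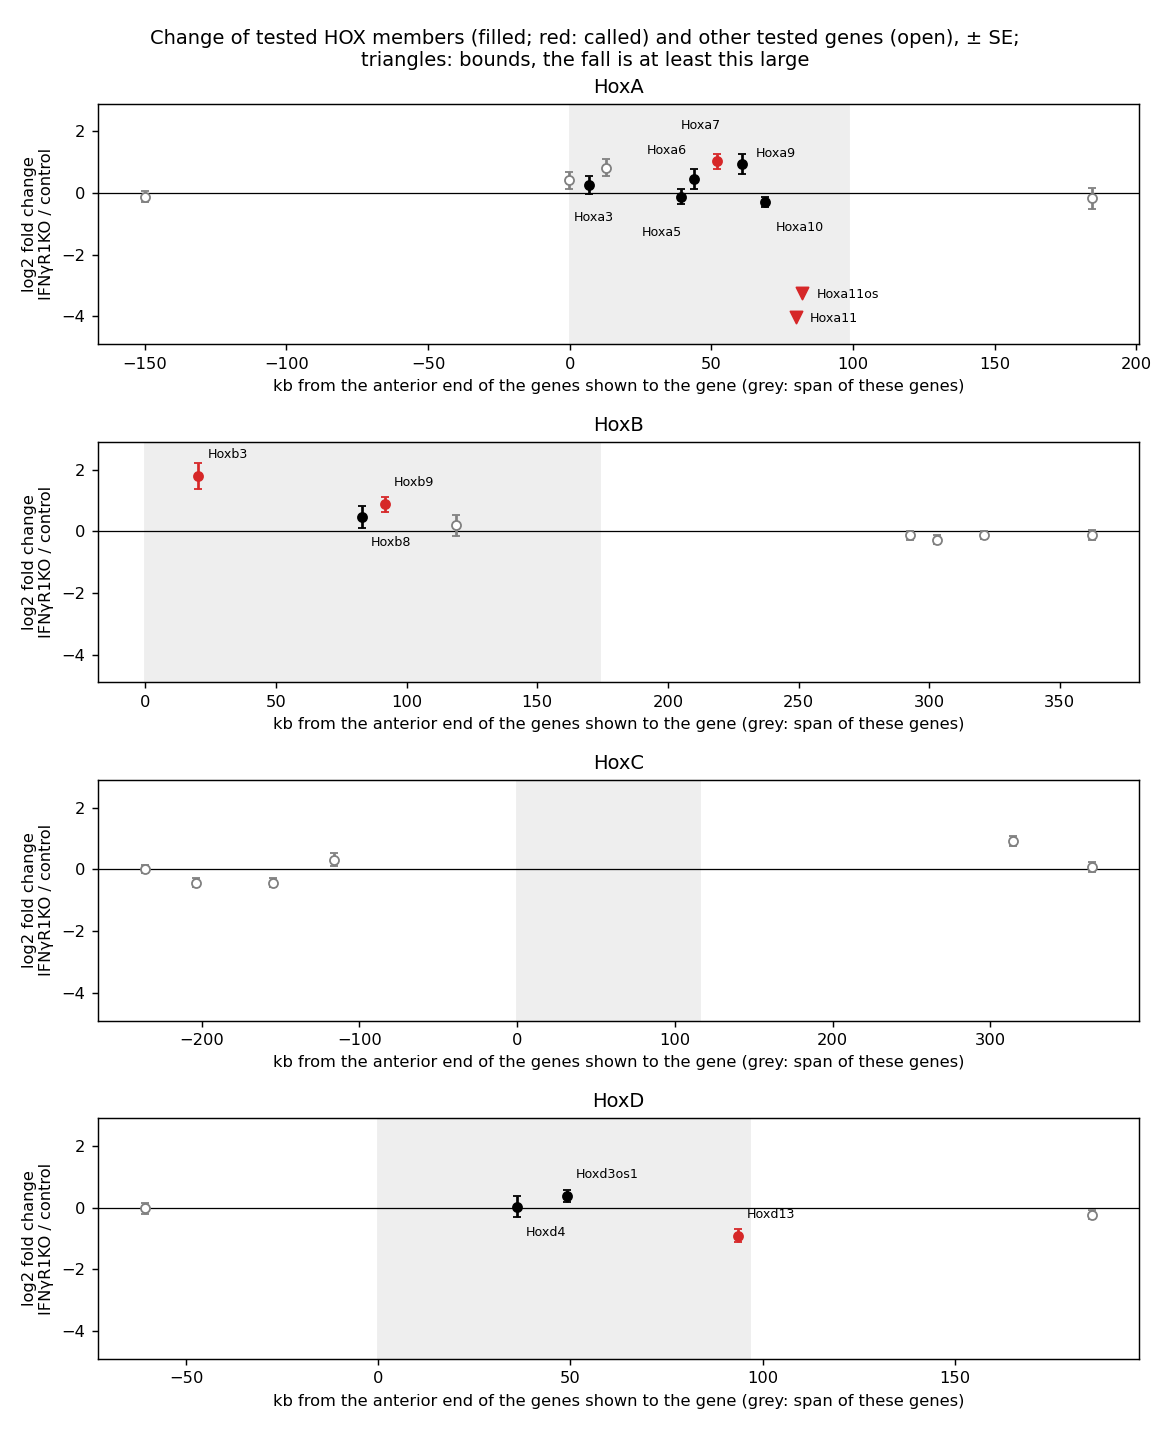
log2 fold change (IFNγR1KO over scrambled control, vertical axis) of tested HOX members (filled, red where called at an adjusted p under 0.05) and of other tested genes in or near the cluster (open) against distance in kilobases from the anterior end of the HOX genes shown, with the span of these genes in grey, error bars of 1 SE, and triangles at bounds. Hoxa11 and Hoxa11os lie far below all other genes, Hoxa10 beside them lies near 0 at -0.30, and the tested genes outside the clusters range from -0.43 to 0.92.

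Hoxa11 and its antisense transcript were at or next to 0 in the IFNγR1KO libraries. Hoxa11 (ENSMUSG00000038210.10, chromosome 6, 52242106 to 52245810, minus strand) had 58, 63 and 79 counts in controls, or 6.30, 6.27 and 7.63 CPM, and 0, 1 and 0 counts in IFNγR1KO. Hoxa11os (ENSMUSG00000086427.8, chromosome 6, 52244393 to 52249799, plus strand), a noncoding RNA known to be transcribed across Hoxa11 in the limb bud, had 45, 30 and 40 counts in controls, or 4.89, 2.98 and 3.87 CPM, and 1, 1 and 0 in IFNγR1KO. All control libraries lay far above all IFNγR1KO libraries for both genes. Against the floor of 3 counts per library, Hoxa11 was at least 16.1-fold lower and Hoxa11os at least 9.36-fold lower. The genes overlap, with 35.0% of the exonic bases of Hoxa11 under Hoxa11os and 26.0% of those of Hoxa11os under Hoxa11. A further 21.6% of Hoxa11os lie under other, short genes on its own strand. Whether the counting used strand is not given in the sources used here, so that reads from the shared bases cannot be told apart.

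The gene beside them was still expressed. Hoxa10, the next gene on the anterior side, had 44.0, 42.0 and 30.8 CPM in IFNγR1KO, which overlapped the control values given above (log2 fold change -0.30, SE 0.17, edgeR adjusted p = 0.262). Hoxa13, on the other side, had no count in either group. Hoxa10 passed the test once a term for control 3 and IFNγR1KO 12 was added (-0.31, edgeR adjusted p = 0.0329), and without both libraries it did not (-0.22, adjusted p = 0.280).

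Farther towards the anterior end of HoxA, Hoxa7 was called higher. Hoxa7, a mid-trunk gene, had 8.25, 4.28 and 5.12 CPM in controls and 12.1, 11.8 and 12.1 CPM in IFNγR1KO, without overlap (log2 fold change 1.03, SE 0.24, edgeR adjusted p = 0.0122). The call was lost without control 2 (edgeR adjusted p = 0.0641), and the estimate lay between 0.85 and 1.34 when 1 library was left out. Of the exonic bases of Hoxa7, 20.4% lie under the antisense gene Hoxaas3 described below.

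The members beside it did not pass. Hoxa9, a gene known for its role in leukaemia with its cofactor Meis1, had 1.74, 1.29 and 1.55 CPM in controls and 3.84, 2.03 and 2.95 CPM in IFNγR1KO (0.94, SE 0.33, edgeR adjusted p = 0.0769). Its groups did not overlap, and it passed with the term for control 3 and IFNγR1KO 12 (0.94, edgeR adjusted p = 0.0340) but not without both libraries (0.94, edgeR adjusted p = 0.121). Hoxa6, with 1.30, 1.49 and 1.55 CPM against 1.85, 1.63 and 2.53 CPM, gave 0.46 (SE 0.33, edgeR adjusted p = 0.406). Hoxa5, a regulator of lung and airway development, stayed between 3.39 and 4.36 CPM in all 6 libraries (-0.12, SE 0.24, edgeR adjusted p = 0.801). Hoxa3, a gene of the pharyngeal arches, ranged from 2.71 to 4.56 CPM in controls and from 3.13 to 5.20 CPM in IFNγR1KO (0.26, SE 0.29, edgeR adjusted p = 0.610).

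**Figure D3:**
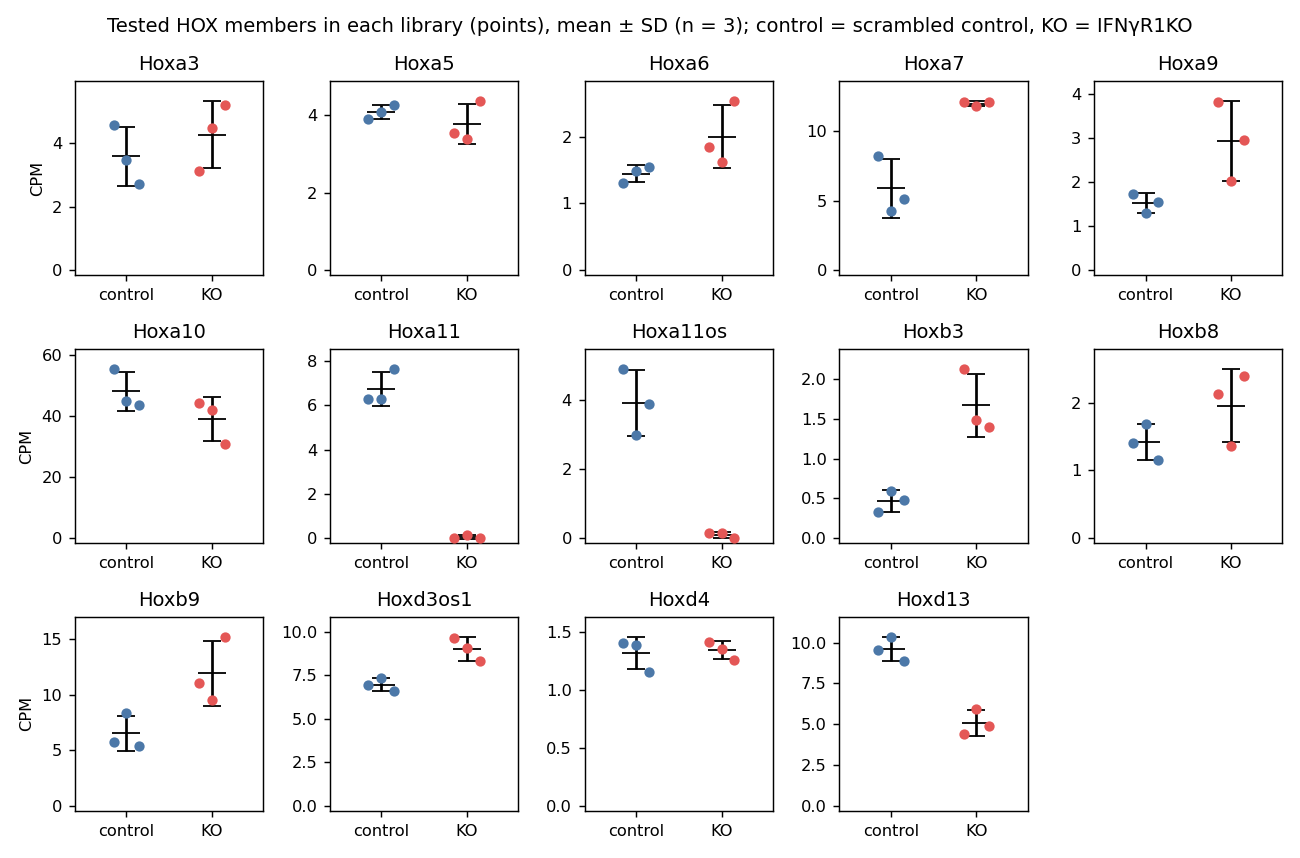
CPM of the 14 tested HOX members in each library (points, control in blue and IFNγR1KO in red, with libraries in label order from left to right), with the mean and SD of 3 libraries and a separate vertical scale for each gene. Hoxa11 and Hoxa11os drop to 0 or near it, Hoxd13 is lower in every IFNγR1KO library, and Hoxa7, Hoxb3 and Hoxb9 are higher in every one. Hoxa6, Hoxa9 and Hoxd3os1, which were not called, are also higher in every one. The share of all genes tested that separate in this way is not given here, so nothing is read from how many members do. Hoxa3, Hoxa5, Hoxa10, Hoxb8 and Hoxd4 overlap between groups.

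In HoxB the posterior gene Hoxb9 was called higher, and Hoxb3 entered the test through the IFNγR1KO libraries alone. Hoxb9, a gene of the thoracic region, rose from 5.75, 8.36 and 5.41 CPM to 11.1, 9.48 and 15.2 CPM (log2 fold change 0.87, SE 0.24, edgeR adjusted p = 0.0281). Its groups did not overlap, but the call was lost without control 1 (edgeR adjusted p = 0.0819), control 3 (0.0555), IFNγR1KO 10 (0.0565) or IFNγR1KO 12 (0.0616). Without both control 3 and IFNγR1KO 12 the fold change was 0.53 (edgeR adjusted p = 0.117), under the main value by more than 1.5 times. Hoxb9 shares no exonic base with another gene.

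Hoxb3, an anterior gene of the hindbrain and thymus, was among the lowest members and had 3, 6 and 5 counts in controls and 15, 11 and 10 in IFNγR1KO. This was 0.326, 0.597 and 0.483 CPM against 2.13, 1.49 and 1.41 CPM (log2 fold change 1.79, SE 0.43, edgeR adjusted p = 0.0152). Because Hoxb3 passed the filter only through the group in which it was high, this call is no support for a difference. It was lost with DESeq2 (adjusted p = 0.0605), in libraries thinned to the smallest total, without control 1 (edgeR adjusted p = 0.0549) and without IFNγR1KO 10 (0.0930). Of its exonic bases 52.9% lie under Hoxb3os, which had 6, 11 and 4 counts in controls and 10, 7 and 10 in IFNγR1KO and was too low to test. Hoxb8, the neighbour of Hoxb9, had 1.41, 1.69 and 1.16 CPM against 2.13, 1.35 and 2.39 CPM (0.46, SE 0.35, edgeR adjusted p = 0.439). The remaining 9 members of HoxB, Hoxb3os among them, had at most 11 counts in any library.

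In HoxD the posterior end was lower and the rest was not called. Hoxd13 (ENSMUSG00000001819.4, chromosome 2, 74668310 to 74671599, plus strand) had 88, 104 and 92 counts in controls and 31, 44 and 35 in IFNγR1KO. In CPM this was 9.55, 10.3 and 8.89 against 4.40, 5.96 and 4.92, with every IFNγR1KO library below every control (log2 fold change -0.91, SE 0.21, edgeR adjusted p = 0.0111). The estimate stayed between -1.02 and -0.82 when 1 library was left out, with the adjusted p at 0.0511 without control 2 and 0.0606 without IFNγR1KO 10. No annotated exon overlaps Hoxd13.

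Hoxd3os1, the antisense gene beside Hoxd3 and Hoxd4, was the second member of HoxD by level in controls and the first in IFNγR1KO. It had 6.95, 7.36 and 6.57 CPM in controls and 9.66, 9.08 and 8.29 CPM in IFNγR1KO, without overlap but not past the test (0.37, SE 0.19, edgeR adjusted p = 0.216). Hoxd4 had 1.41, 1.39 and 1.16 CPM against 1.42, 1.35 and 1.27 CPM (0.030, SE 0.35, edgeR adjusted p = 0.969). Of its exonic bases 52.3% lie under other genes on the same strand, and Hoxd3, which it overlaps, had 1 to 4 counts per library.

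**Figure D4:**
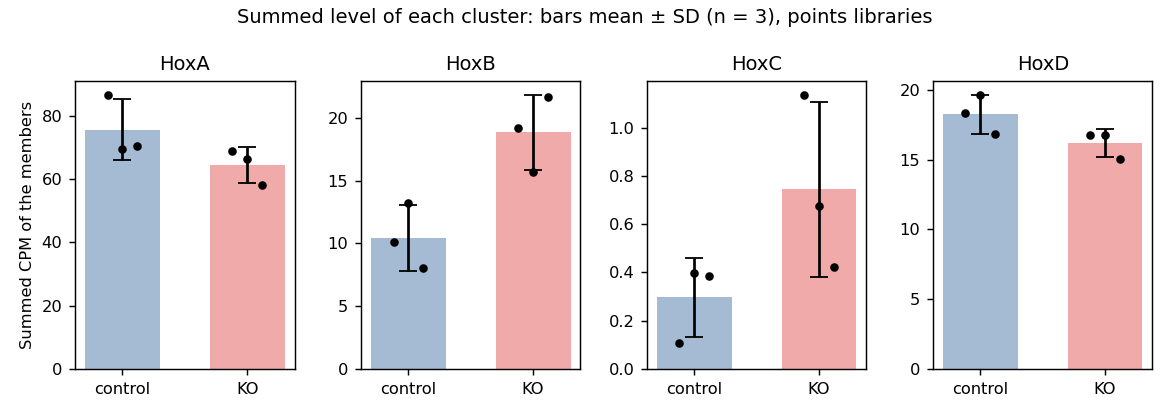
Summed CPM of the reported members of each HOX cluster in scrambled control (blue) and IFNγR1KO (red) libraries, as bars of the mean with SD (n = 3) and points for libraries, each panel with its own scale from 0. The 3 IFNγR1KO libraries lie above all controls in HoxB (15.7 to 21.6 against 8.02 to 13.2 CPM). In HoxA they lie below them (58.1 to 69.0 against 69.5 to 86.7 CPM). The HoxA sums include Hoxa11 and Hoxa11os, on which attention to the family rests, so no shift of the other HoxA members is read from them. In HoxD the groups nearly touch (15.04 to 16.798 CPM in IFNγR1KO against 16.814 to 19.60 CPM in controls), and HoxC holds at most 1.14 CPM.

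As a total, HOX expression differed by less than the spread between libraries, while the members' shares of it differed. All 42 members together summed to 105 ± 9.85 CPM in controls and 100.3 ± 5.50 CPM in IFNγR1KO (SD, n = 3). HoxA went from 75.6 ± 9.62 to 64.5 ± 5.75 CPM, HoxB from 10.4 ± 2.62 to 18.8 ± 2.98 CPM, HoxD from 18.3 ± 1.40 to 16.2 ± 1.00 CPM, and HoxC from 0.298 ± 0.164 to 0.745 ± 0.362 CPM. The HoxA difference of -11.1 CPM was -5.55 CPM without control 1 and -14.1 CPM without control 2. It was -7.29 CPM without the members that overlap a gene on the other strand. The HoxA sums include Hoxa11 (mean 6.73 CPM in controls and 0.0452 CPM in IFNγR1KO) and Hoxa11os (3.91 and 0.0925 CPM). Their fall makes up most of the HoxA difference, so no shift of the other HoxA members is read from it. The HoxC difference of 0.448 CPM was 0.252 CPM without IFNγR1KO 10. The share of Hoxa10 was 32.3 to 42.1% of this sum in IFNγR1KO, below the control range given above. Sums over members chosen with results known were not tested.

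Per kilobase of exon, Hoxa10 remained the highest member in IFNγR1KO at 11.9 ± 2.18 CPM, followed by Hoxb9 (4.63 ± 1.14) and Hoxa7 (4.17 ± 0.0597). Hoxd13 moved from rank 2 to rank 6 at 2.05 ± 0.319 CPM per kilobase. Hoxa11, at rank 3 in controls, was under the floor of 3 counts in every IFNγR1KO library, as was Hoxa11os, and neither is ranked there.

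The genes around the clusters were looked at in the same test. Within 250000 bases of the ends given above the annotation holds 65 other genes, of which 15 were tested, none was lower and 1 was higher, where 7.62% and 7.73% of all genes were. This was Calcoco1, a coiled-coil coactivator gene beyond the posterior end of the silent HoxC cluster, at 16.2 ± 1.80 CPM in controls and 30.7 ± 4.003 CPM in IFNγR1KO (log2 fold change 0.92, SE 0.16, edgeR adjusted p = 0.00255). Next to HoxA, Skap2 gave -0.12 (SE 0.18, edgeR adjusted p = 0.724) at 150 ± 29.4 CPM in controls, and beside HoxD, Mtx2 gave -0.027 and Lnpk, which lies in the region that drives posterior Hoxd genes in the digits, gave -0.23. Evx1, Evx2 and the long noncoding RNA Hottip, which adjoin the posterior ends of HoxA and HoxD, had no count.

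Among them, Hotairm1, a noncoding RNA at the anterior end of HoxA, gave 0.42 (SE 0.28, edgeR adjusted p = 0.353). Inside the clusters lie 37 further genes, of which 2 could be tested and neither passed. Hoxaas3, the antisense transcript that crosses Hoxa3 to Hoxa7, gave 0.82 (SE 0.27, edgeR adjusted p = 0.0611) with 2.34 ± 0.191 CPM in controls and 4.13 ± 0.777 CPM in IFNγR1KO. Hoxaas3 passed with the term for control 3 and IFNγR1KO 12 (0.82, edgeR adjusted p = 0.0240) but not without both libraries (0.64, edgeR adjusted p = 0.199). The pseudogene Gm11539 in HoxB gave 0.19. All 7 microRNA genes inside the clusters and the noncoding RNA Hotair in HoxC were listed at 0, as far as a poly(A) library can show.

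Known regulators and partners of HOX genes were then taken from gene lists, to be read against the 7.62% of all genes called lower and the 7.73% called higher. Of 9 tested TALE cofactor genes, which encode the PBX, MEIS and PKNOX partners, 1 was higher and none lower (median log2 fold change 0.37). This was Pknox2, with 2.93, 2.39 and 3.87 CPM in controls and 7.10, 6.10 and 9.28 CPM in IFNγR1KO (1.28, SE 0.26, edgeR adjusted p = 0.00640). Of 28 tested genes of the Polycomb repressive complexes, 5 were lower and 1 higher (median -0.091). Cbx2, the reader of repressive histone marks whose loss alters axial identity in mice, fell from 24.4, 21.4 and 26.1 CPM to 12.6, 8.81 and 11.1 CPM (-1.14, SE 0.18, edgeR adjusted p = 0.00132). Kdm2b, which brings a Polycomb complex to CpG islands, gave -0.71 (edgeR adjusted p = 0.0176), Cbx6 gave -0.67 (0.0244) and the ubiquitin ligase gene Ring1 gave 0.61 (0.0225). The calls on Pknox2 and Cbx2 held in all 6 fits that left out 1 library. That on Kdm2b was lost without IFNγR1KO 10 (edgeR adjusted p = 0.0867) or IFNγR1KO 11 (0.0886), that on Cbx6 without control 2, control 3, IFNγR1KO 10 or IFNγR1KO 11 (up to 0.117), and that on Ring1 without control 1, control 3, IFNγR1KO 10 or IFNγR1KO 11 (up to 0.0995). Phf19, a further Polycomb gene, was too low to test, with 13, 15 and 10 counts in controls and 0, 1 and 0 in IFNγR1KO.

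Of 13 tested genes for MLL and UTX complexes, 2 were lower and 2 higher (median -0.014). Those that rose were the genes for the H3K27 demethylases, with Kdm6b at 22.8, 18.1 and 27.1 CPM in controls and 42.6, 44.6 and 50.6 CPM in IFNγR1KO (1.02, SE 0.17, edgeR adjusted p = 0.00172) and Kdm6a at 0.75 (SE 0.14, edgeR adjusted p = 0.00397). Wdr5, a shared subunit of the MLL complexes, gave -0.47 (edgeR adjusted p = 0.0272) and Psip1, the tether of MLL, gave -0.43 (0.0451). The calls on Kdm6a and Kdm6b held without any 1 library, whereas those on Wdr5 and Psip1 were lost without any 1 other than IFNγR1KO 12 (edgeR adjusted p up to 0.124 and 0.211).

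Retinoic acid switches on anterior HOX genes and CDX factors the central ones. Of 19 genes in a list of both, 11 were tested, 1 was lower and 2 were higher (median 0.17), and 4 had no count, Cdx2 and Cdx4 among them. Dhrs3, which lowers retinaldehyde, fell from 7.38, 8.36 and 8.60 CPM to 0.994, 2.44 and 3.66 CPM (-1.77, SE 0.33, edgeR adjusted p = 0.00338). Aldh1a1, which makes retinoic acid, rose from 8.06 ± 0.385 to 17.8 ± 3.28 CPM (1.14, SE 0.19, edgeR adjusted p = 0.00177), and the retinoid receptor gene Rxrb gave 0.57 (0.00911; 0.0561 without IFNγR1KO 11). None of 8 tested genes for CTCF and cohesin, which insulate HOX domains, was called (median -0.14). Over all genes tested the median was -0.0015, and 7.62% and 7.73% were called lower and higher.

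Markers of other cell types were set beside these values. Of 7 fibroblast markers 3 were tested and 2 were higher, Col1a1 (1.96, SE 0.32, edgeR adjusted p = 0.00175) and Col1a2 (1.07, SE 0.14, edgeR adjusted p = 4.76e-04). The third, Pdgfra, had 3.60 ± 0.481 CPM in controls and 2.10 ± 0.327 CPM in IFNγR1KO (-0.77, SE 0.28, edgeR adjusted p = 0.0866). The sum of the list was 57.0 to 75.4 CPM in controls and 129 to 133 CPM in IFNγR1KO, almost all of it Col1a2, and Lum and Thy1 were at 0 in every library. The sum was thus higher in the libraries in which Hoxa7, Hoxb3 and Hoxb9 were higher, and its part in their change was not tested. Keratinocyte markers summed to at most 0.651 CPM and endothelial ones to at most 0.217 CPM in any library. Of 7 immune cell markers 5 were at 0, and the sum of the list was 6.84 to 9.28 CPM in controls and 5.97 to 8.40 CPM in IFNγR1KO. Almost all of it was Csf1r (7.86 ± 1.30 CPM in controls and 7.46 ± 1.31 CPM in IFNγR1KO). Ptprc had 1 count, in control 1.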

How the data were processed

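Poly(A)-selected RNA of 3 scrambled control and 3 IFNγR1KO cultures was sequenced as paired ends. The authors aligned reads to GRCm38 with STAR 2.7.5a, counted them per gene with HTSeq 0.11.2 and deposited these counts as they were, 1 table per library; DESeq2 1.34.0 was their test, per the submitters' processing notes. The annotation release and strand setting are not given in the sources used here. Reads that the counting assigned to no gene feature made up 46.9 to 47.7% of each table, beside 46.0 to 47.0% counted on genes. They were left out with the other summary lines, and where they lie is not given.

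Identifiers were matched to GENCODE M21 without their version (55154 of 55335; all 43 HOX members with the same version). edgeR 4.0.16 in R 4.3.3 was run on all genes with filterByExpr (minimum count 10, minimum total 15), TMM scaling and the quasi-likelihood test, p adjusted by Benjamini-Hochberg, after it had been tested on simulated data. Exonic bases are the union of a gene's exons. The floor was 3 counts per library, and the fold of a gene that stayed at or under it throughout a group is a bound. RefSeq promoters were found for 25 of 42 members. The remaining member of the family is not reported here, and counts, sums, ranks and cluster ends leave it out.

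The members and gene lists were chosen with earlier results of these data known. The reported members are named, together with tested genes within 250000 bases of a cluster or inside it, Ifngr1, and, for each list and direction, the called genes of lowest adjusted p, at most 3. Genes named without being tested, and single flanking genes, were picked after their values were seen. Replicates differed by more than sampling noise (chi-square per degree of freedom 2.62 to 22.7). The alternatives were DESeq2 1.42.0, RLE scaling, no filter, thinned libraries, other expression thresholds and leaving out each library, and, chosen after seeing the data, leaving out or modelling control 3 and IFNγR1KO 12.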

Additional observations from a re-analysis of the deposited data

How the results depend on the processing

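Without 1 library, 1 to 3 HOX members were called higher and 2 to 3 lower, with Hoxa11 and Hoxa11os, which are not read as tests, among the lower ones, and over all genes 535 to 1372 were higher and 457 to 1452 lower, against 1054 and 1039 with all 6. Without both control 3 and IFNγR1KO 12, which was chosen after seeing the data, 1617 genes were lower, and with a term for them 2540 were lower and 2243 higher; the cause was not tested. Estimates near 0 changed sign for Hoxa3 (-0.075 without both libraries) and Hoxd4 (-0.017 without both, and -0.058 to 0.076 when 1 library was left out, with the negative values without control 3 or IFNγR1KO 10), and outside the family for Skap2 (-0.27 to 0.025), Mtx2 (-0.14 to 0.11; 0.0061 in thinned libraries and 0.0093 without both libraries) and Gm11539 (-0.12 to 0.49). Without members that overlap the other strand, the HoxD sum differed by -4.36 CPM instead of -2.05 CPM, since Hoxd3os1, Hoxd4 and Hoxd3 then drop out. The other tests, scalings and filters kept the HOX calls, except for Hoxb3 with DESeq2 and in thinned libraries. Ifngr1 passed with the term (-0.47, edgeR adjusted p = 0.0164) but not without both libraries (-0.44, edgeR adjusted p = 0.112). Depth limits members of a few counts such as Hoxb3, and no paired analysis was possible because the groups share no replicate numbers.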
